A study of Mus musculus with 9 samples.

Results

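The ligands, receptors and feedback genes of the TGF-beta and activin branch were followed in normal mammary fibroblasts grown with or without breast carcinoma cells. The 10 genes were chosen by name, with earlier results of these data known. They were the TGF-beta ligand genes Tgfb1, Tgfb2 and Tgfb3, the receptor genes Tgfbr1, Tgfbr2 and Tgfbr3, the activin A subunit gene Inhba, the activin antagonist gene Fst, and the feedback genes Smad7 and Pmepa1. All 10 were among the 11931 genes of the deposited counts. Fibroblasts were taken from the mammary fat pads of female BALB/c mice aged 12 weeks and recovered on collagen for 1 week. They were then sequenced after co-culture with 4T1-GFP cells for 3 days, after the same co-culture for 5 days, or after monoculture for 5 days, with 3 libraries in each group. 4T1 is a mouse mammary carcinoma line, here marked with green fluorescent protein (GFP), and the cells of all 3 groups were sorted as GFP-negative and positive for podoplanin, the product of Pdpn. The labels leave unsaid if replicates were separate mice or cultures, so p-values measure only the spread between these libraries, which may be technical.

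TGF-beta is secreted in a latent form, bound to its own propeptide and to matrix proteins, and acts once released. It binds the type II receptor encoded by Tgfbr2, which recruits and phosphorylates the type I receptor encoded by Tgfbr1, and the type I receptor in turn phosphorylates SMAD2 and SMAD3. Activins signal to the same SMADs through their own receptors. In fibroblasts this branch is known for driving matrix production and contractile genes, and it is widely studied in tumour stroma.

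The deposited values are normalised counts from 3′ end mRNA libraries, in which each library was scaled by a factor of its own. Recovered reads per library lay between 1048471 and 3567326, with means of 1632228 after 3 days of co-culture, 1806567 after 5 days and 2966627 in monoculture. Fibroblast markers checked the label: all 12 listed had values, and Col1a1 lay between 15538.0 and 26146.3 normalised counts in every library. Of these 12, 0 rose and 5 fell at 3 days, and 1 rose and 6 fell at 5 days. The shares called were 41.7% and 58.3%, beside 20.0% and 24.0% of all tested genes. Epithelial and carcinoma markers differed between the groups. Their summed normalised counts, over the 18 of 21 markers with values, lay between 1141.7 and 1309.2 after 3 days of co-culture, between 1120.6 and 1569.1 after 5 days, and between 63.5 and 85.2 in monoculture. Of the 16 that were tested, 14 rose at 3 days and 14 at 5 days, or 87.5% at each time. The epithelial adhesion gene Epcam had 54 reads over the libraries of each co-culture and 1 read over the monocultures. Cldn3 had 43, 31 and 0 reads at 3 days, at 5 days and in monoculture, and Elf3, too low to be tested, had 8, 9 and 0. Other markers of the list had more monoculture reads, such as Krt18 with 140 and Krt19 with 86. Muc1 averaged 3.53 at 3 days and 3.33 at 5 days, against 4.83 in monoculture. Adipocyte markers, with values for 2 of 8, summed to 10.8 to 59.9 over both co-cultures, against 150.4 to 345.2 in monoculture. Pericyte and smooth muscle markers, with values for 6 of 8, summed to 186.4 to 274.0, against 61.1 to 134.3. Of the 5 tested, 2 were called higher at 3 days and 1 at 5 days. These were 40% and 20%, beside 20.0% and 24.0% of all tested genes. Cspg4, called at both, averaged 77.9 at 3 days, 108.8 at 5 days and 10.2 in monoculture. At 5 days the means of Mcam and Myh11 were below monoculture (4.77 against 7.97 and 7.17 against 13.7). Those of Des and Notch3 were above it. Endothelial markers, with values for 3 of 10, summed to 37.2 to 64.7, against 25.5 to 30.9. Leukocyte markers, with values for 7 of 11, overlapped, at 71.0 to 357.9 and 97.1 to 269.3. Libraries of carcinoma cells alone were not analysed here. The part of remaining carcinoma or other cells in the results that follow was not tested. In such bulk libraries, fewer cells of a type and less RNA per cell cannot be told apart.

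Inhba, Tgfb1 and Tgfb2 were higher in both co-cultures, and Tgfb3 was higher at 5 days. The 3 receptor genes were lower at 3 days, and at 5 days only Tgfbr3 passed as lower. Against monoculture, 6 of the 10 genes passed the test at 3 days, 3 higher and 3 lower, and 6 passed at 5 days, 5 higher and 1 lower. Called genes have a limma adjusted p under 0.05 on log2(value + 1), adjusted over the 10639 genes tested. Of all tested genes, 20.0% were called at 3 days (10.6% higher, 9.37% lower) and 24.0% at 5 days (12.6% higher, 11.4% lower). Between the co-cultures 4 of the 10 were called, 3 higher and 1 lower at 5 days, where 6.91% of all tested genes were called (3.20% higher, 3.71% lower). That last background rests on 735 calls, and 323 were made without replicate 2 of the 3-day co-culture, with 442, 426 and 458 without replicates 1, 2 and 3 of the 5-day co-culture. The median log2 fold change over the 10 genes was -0.30 at 3 days, 0.53 at 5 days and 0.55 between the co-cultures, and over all tested genes it was 0.00, -0.01 and -0.01. The libraries of the compared groups did not overlap for 6 of the 10 genes at 3 days and 7 at 5 days against monoculture, and for 6 between the co-cultures. Over all tested genes the groups did not overlap for 37.4%, 40.9% and 24.6%. Every one of the 10 genes passed the filter on low values through all its libraries, since their lowest value in any library was 10.3. The 2 comparisons with monoculture share the monoculture libraries. The monocultures were all sampled at 5 days, so at 3 days the presence of carcinoma cells and the length of culture cannot be told apart.

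**Figure D1:**
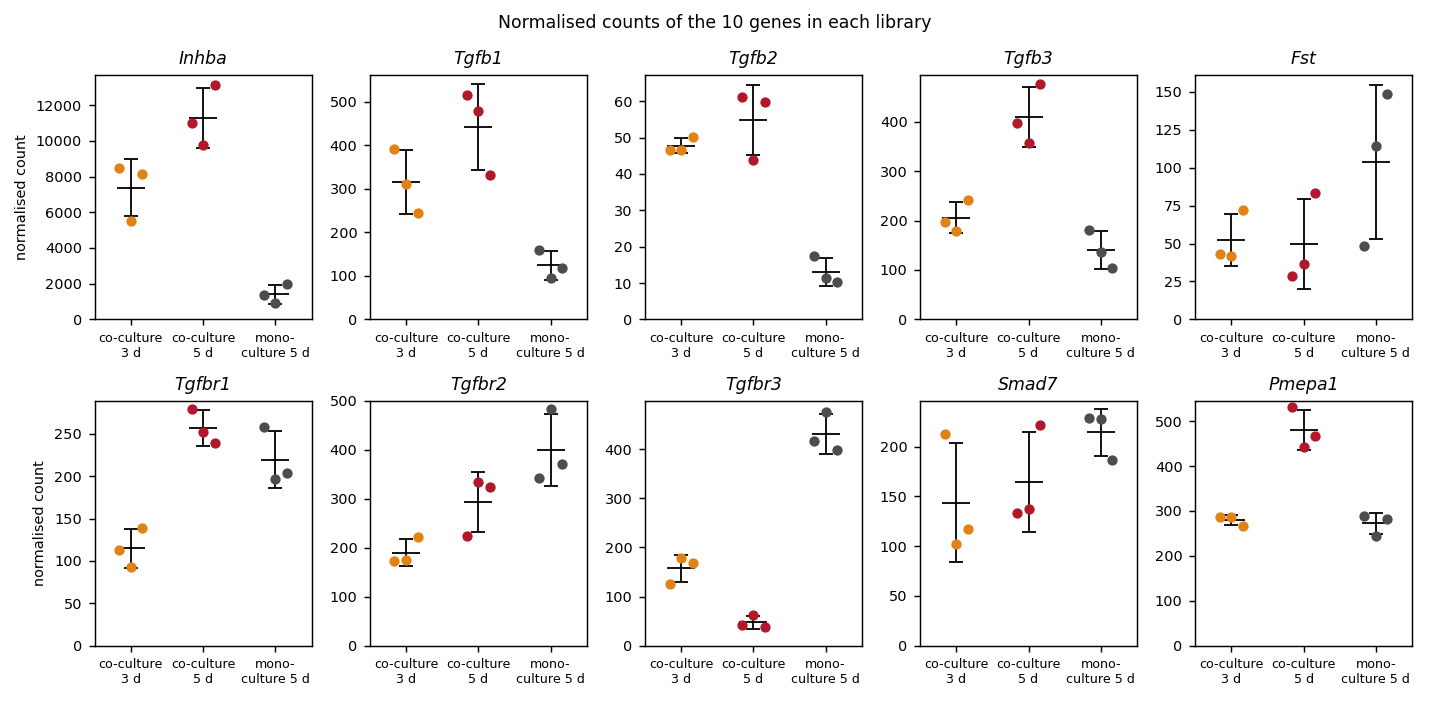
Normalised counts (vertical axes, from 0) of the 10 genes in each library, with points for the 3 libraries of each group and the mean ± SD in black. All co-culture points of Inhba, Tgfb1 and Tgfb2 lie above all monoculture points, and those of Tgfbr3 lie below, lowest at 5 days.

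Inhba (chromosome 13, 16011851 to 16031621, plus strand, mm10, protein-coding) encodes the beta A subunit, a dimer of which is activin A. It had 8455.8, 5534.2 and 8157.1 normalised counts after 3 days of co-culture, 11010.9, 9789.7 and 13101.1 after 5 days, and 1337.5, 908.0 and 1956.4 in monoculture. Every co-culture library was above every monoculture library. The rise was 5.43-fold at 3 days (log2 fold change 2.44 ± 0.26, SE, n = 3 each, adjusted p = 6.4e-06) and 8.40-fold at 5 days (3.07 ± 0.26, adjusted p = 3.5e-07). The 5-day libraries also lay above the 3-day libraries, by 0.63 on the log2 scale (95% interval 0.08 to 1.18), but this difference did not pass over all genes (adjusted p = 0.16). Among the 10639 tested genes, Inhba had the 174th largest log2 rise at 3 days and the 107th at 5 days. An antisense gene, Gm48444, overlaps the 3′ end of Inhba in the annotation, and whether reads were counted by strand is not stated.

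Tgfb1 (chromosome 7, 25687002 to 25705077, plus strand) encodes the best studied TGF-beta isoform. It had 391.9, 311.2 and 243.5 normalised counts after 3 days of co-culture, 515.7, 478.7 and 330.8 after 5 days, and 160.3, 94.7 and 118.3 in monoculture. The co-cultures stood wholly above the monocultures, whereas the 5-day and 3-day libraries overlapped. Tgfb1 rose 2.53-fold at 3 days (log2 fold change 1.34 ± 0.24, adjusted p = 0.00075) and 3.55-fold at 5 days (1.83 ± 0.24, adjusted p = 3.2e-05). Between the co-cultures the difference was 0.49 (95% interval -0.02 to 0.99, adjusted p = 0.24).

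Tgfb2 (chromosome 1, 186622792 to 186705989, minus strand) encodes the isoform that depends most on the co-receptor betaglycan for binding. It had 46.5, 46.6 and 50.1 normalised counts after 3 days of co-culture, 61.1, 43.8 and 59.9 after 5 days, and 17.3, 11.5 and 10.3 in monoculture. Both co-cultures were above monoculture without overlap, and they overlapped each other. The rise was 3.55-fold at 3 days (1.83 ± 0.26, adjusted p = 0.00013) and 4.03-fold at 5 days (2.01 ± 0.26, adjusted p = 3.6e-05). These values rest on 131 and 163 reads in the 3-day and 5-day co-cultures and 68 reads in the monocultures, where no other of the 10 genes had fewer.

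Tgfb3 (chromosome 12, 86056745 to 86079041, minus strand) encodes the remaining isoform. It had 197.6, 179.6 and 240.7 normalised counts after 3 days of co-culture, 397.1, 356.7 and 476.9 after 5 days, and 180.1, 135.6 and 103.5 in monoculture. At 3 days it overlapped monoculture and did not pass (log2 fold change 0.58, 95% interval 0.13 to 1.03, adjusted p = 0.066). It did pass there without replicate 1 of the monoculture (0.78, adjusted p = 0.021) and after quantile normalisation (0.62, adjusted p = 0.049). At 5 days it was 2.97-fold higher (1.57 ± 0.21, adjusted p = 5.1e-05), with all libraries above those of both other groups. The difference of 0.99 between 5 and 3 days of co-culture passed (adjusted p = 0.010), but not without replicate 2 of the 3-day co-culture (adjusted p = 0.064) or replicate 3 of the 5-day co-culture (adjusted p = 0.054). The 3′ end of Tgfb3 lies within Ttll5 on the opposite strand, a tubulin glutamylase gene, which averaged 33.2 at 3 days and 73.1 at 5 days of co-culture and 26.2 in monoculture. Ttll5 also rose at 5 days (log2 fold change 1.42, adjusted p = 0.012), and without a stated strand setting the reads of both genes cannot be told apart.

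The promoter sequences of the ligand genes that rose at both times, and of both signalling receptor genes, which fell at 3 days, are shown because these genes changed in opposite directions. RefSeq promoters on GRCm38.p6 were examined for 5 of the 10 genes, and those of the other genes were not examined. The 250 bases before the start site are given 5′ to 3′ on the gene's strand: chr13:16011601-16011850 (plus) for Inhba, chr7:25686752-25687001 (plus) for Tgfb1, chr1:186705990-186706239 (minus) for Tgfb2, chr4:47352972-47353221 (plus) for Tgfbr1 and chr9:116175364-116175613 (minus) for Tgfbr2. Capitals mark matches on either strand to 6 motifs: the SMAD-binding core CAGAC, the AP-1 site TGANTCA, the core of the cyclic AMP response element (CRE) TGACG, the TATA box TATAAA, the GC box GGGCGG and the E-box CACGTG.
Inhba: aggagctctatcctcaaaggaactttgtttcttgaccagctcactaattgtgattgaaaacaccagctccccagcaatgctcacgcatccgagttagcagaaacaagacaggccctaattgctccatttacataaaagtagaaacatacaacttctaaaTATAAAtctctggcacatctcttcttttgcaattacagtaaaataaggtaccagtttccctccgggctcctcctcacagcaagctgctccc
Tgfb1: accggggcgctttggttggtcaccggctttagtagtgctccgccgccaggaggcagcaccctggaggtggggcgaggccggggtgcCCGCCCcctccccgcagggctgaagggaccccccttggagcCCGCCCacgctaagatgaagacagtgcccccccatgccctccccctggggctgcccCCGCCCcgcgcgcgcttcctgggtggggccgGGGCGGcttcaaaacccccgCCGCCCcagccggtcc
Tgfb2: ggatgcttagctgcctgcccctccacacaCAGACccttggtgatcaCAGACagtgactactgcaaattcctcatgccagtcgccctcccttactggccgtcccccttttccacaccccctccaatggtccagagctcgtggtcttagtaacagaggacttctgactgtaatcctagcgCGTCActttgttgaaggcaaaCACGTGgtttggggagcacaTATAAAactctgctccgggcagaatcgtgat
Tgfbr1: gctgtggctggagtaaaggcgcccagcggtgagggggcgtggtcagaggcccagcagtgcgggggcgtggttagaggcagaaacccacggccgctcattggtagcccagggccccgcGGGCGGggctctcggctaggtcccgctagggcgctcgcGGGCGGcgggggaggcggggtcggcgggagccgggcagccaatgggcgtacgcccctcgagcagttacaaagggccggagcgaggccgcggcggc
Tgfbr2: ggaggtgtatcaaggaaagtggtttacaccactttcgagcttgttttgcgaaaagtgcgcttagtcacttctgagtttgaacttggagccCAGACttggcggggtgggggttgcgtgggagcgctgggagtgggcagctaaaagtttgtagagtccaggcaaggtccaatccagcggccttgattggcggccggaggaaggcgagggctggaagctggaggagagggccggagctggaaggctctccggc

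The ligand promoters differed in these letters. Inhba held 1 match, a TATA box 91 to 86 bases before the start (positions -91 to -86), in a stretch of 43.2% G and C. Tgfb2 held a TATA box at -31 to -26, an E-box at -51 to -46, a CRE core at -72 to -68 and 2 SMAD-binding cores. Tgfb1, with 75.2% G and C, held 5 GC boxes and none of the other motifs. The start site shown for Tgfbr1 had 2 GC boxes and that of Tgfbr2 had 1 SMAD-binding core. A further start site of Tgfbr1, not shown, had 1 SMAD-binding core. No AP-1 letters were found in any of the 5 windows. Of all 32851 promoters of this length in the table, 42.2% held the SMAD-binding core, 6.75% the AP-1 site, 17.8% the CRE core, 12.4% the TATA box, 32.7% the GC box and 6.02% the E-box. A match describes the letters and is not evidence of binding.

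Fst (chromosome 13, 114452290 to 114458951, minus strand) encodes follistatin, a secreted protein that binds activins and keeps them from their receptors. It had 43.2, 41.8 and 72.3 normalised counts after 3 days of co-culture, 28.8, 36.3 and 83.6 after 5 days, and 48.3, 114.4 and 148.5 in monoculture. The monoculture libraries spread widely, and the groups overlapped in every comparison. Fst did not pass at 3 days (log2 fold change -0.87, 95% interval -1.73 to -0.01, adjusted p = 0.15) or at 5 days (-1.06, 95% interval -1.92 to -0.20, adjusted p = 0.071). At 5 days it did pass in the count tests of edgeR (adjusted p = 0.046) and DESeq2 (adjusted p = 0.036) on recovered reads. It also passed there without replicate 1 of the monoculture (adjusted p = 0.0074) or replicate 3 of the 5-day co-culture (adjusted p = 0.019), and at 3 days without that monoculture library (adjusted p = 0.019).

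The ratio of Inhba to Fst within a library does not depend on how the libraries were scaled. It was 195.7, 132.4 and 112.8 after 3 days of co-culture, 382.3, 269.7 and 156.7 after 5 days, and 27.7, 7.94 and 13.2 in monoculture. Every co-culture library lay above every monoculture library, and the size of the ratio is not one of molecules, since capture differs between genes.

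All 3 receptor genes fell at 3 days, and at 5 days 1 of them, Tgfbr3, passed. Tgfbr1 (chromosome 4, 47353222 to 47414931, plus strand) encodes the type I receptor, the kinase that phosphorylates SMAD2 and SMAD3. It had 112.9, 92.6 and 139.1 normalised counts after 3 days of co-culture, 279.4, 252.4 and 238.5 after 5 days, and 258.1, 196.1 and 203.7 in monoculture. The 3-day libraries were all below those of the other groups, which overlapped each other. Tgfbr1 was 0.523 times its monoculture level at 3 days (log2 fold change -0.94 ± 0.19, adjusted p = 0.0027). At 5 days the difference was 0.23 (95% interval -0.18 to 0.65, adjusted p = 0.42). Between the co-cultures, 5 days stood 2.25-fold above 3 days (1.17 ± 0.19, adjusted p = 0.0019).

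Tgfbr2 (chromosome 9, 116084293 to 116175360, minus strand) encodes the type II receptor, which binds the ligand first. It had 172.7, 174.7 and 222.6 normalised counts after 3 days of co-culture, 223.7, 334.4 and 324.6 after 5 days, and 342.9, 484.0 and 372.1 in monoculture. The 3 groups did not overlap, with 5 days between the others. The fall to 0.479 times monoculture passed at 3 days (-1.06 ± 0.20, adjusted p = 0.0016). At 5 days the difference of -0.45 (95% interval -0.88 to -0.01) did not pass (adjusted p = 0.13), and neither did the 0.62 between 5 and 3 days of co-culture (95% interval 0.18 to 1.05, adjusted p = 0.083). Without replicate 1 of the 5-day co-culture the difference between the co-cultures was 0.80 and passed (adjusted p = 0.048).

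Tgfbr3 (chromosome 5, 107106570 to 107289629, minus strand) encodes betaglycan, a co-receptor that presents TGF-beta to the signalling receptors and also binds inhibin. It had 126.2, 178.2 and 168.3 normalised counts after 3 days of co-culture, 42.2, 62.4 and 37.5 after 5 days, and 416.5, 475.9 and 398.5 in monoculture. The 3 groups were apart, with 5 days lowest. Tgfbr3 was 0.365 times monoculture at 3 days (-1.46 ± 0.22, adjusted p = 0.00017) and 0.110 times at 5 days (-3.19 ± 0.22, adjusted p = 3.7e-08). The further fall between 5 and 3 days of co-culture, to 0.301 times, also passed (-1.73 ± 0.22, adjusted p = 0.00018). Of the 10 genes it was the only one called in all 3 comparisons, and its log2 fall at 5 days was the 93rd largest of the 10639 tested genes.

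The signalling receptors and the co-receptor changed their proportions. The ratio of Tgfbr1 to Tgfbr3 lay between 0.520 and 0.895 after 3 days of co-culture, between 4.04 and 6.62 after 5 days, and between 0.412 and 0.620 in monoculture. That of Tgfbr2 to Tgfbr3 lay between 0.980 and 1.37 after 3 days, between 5.30 and 8.66 after 5 days, and between 0.823 and 1.02 in monoculture. In both ratios the 5-day libraries stood apart, while the 3-day libraries overlapped those of monoculture.

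**Figure D2:**
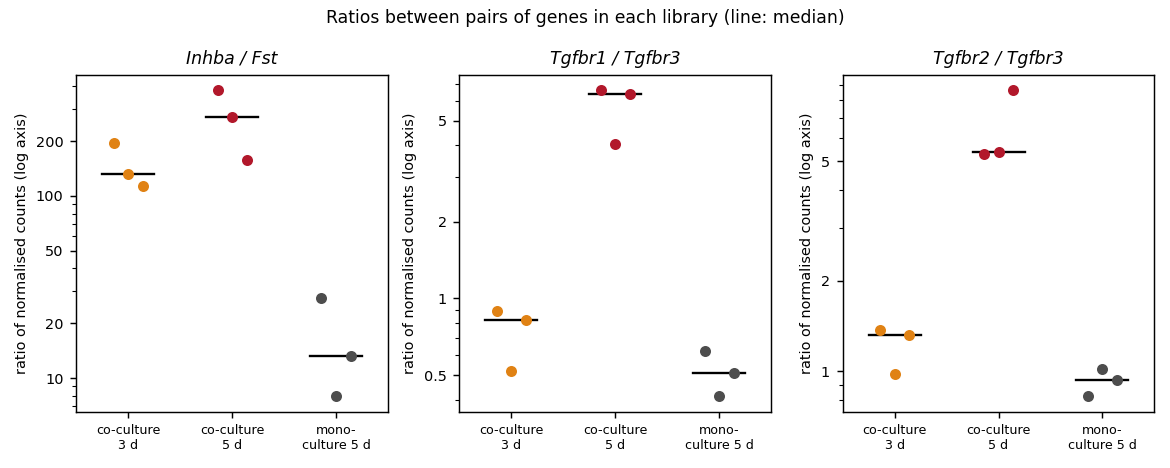
Ratios of normalised counts between 2 genes in each library, on log axes, with points for libraries and lines for group medians. Inhba to Fst is higher in both co-cultures than in monoculture, and the receptor ratios to Tgfbr3 are highest at 5 days, at medians of 6.36 for Tgfbr1 and 5.36 for Tgfbr2.

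Smad7 and Pmepa1 are induced by TGF-beta signalling in many cells and restrain it, Smad7 as an inhibitory SMAD that targets the type I receptor and Pmepa1 as a membrane protein that binds SMADs. Smad7 (chromosome 18, 75367529 to 75395935, plus strand) had 212.6, 102.3 and 116.9 normalised counts after 3 days of co-culture, 133.0, 137.8 and 222.2 after 5 days, and 228.4, 228.3 and 187.0 in monoculture. A single high library in each co-culture brought overlap with monoculture. Smad7 passed neither at 3 days (log2 fold change -0.64, 95% interval -1.20 to -0.09, adjusted p = 0.098) nor at 5 days (-0.42, 95% interval -0.97 to 0.14, adjusted p = 0.28). Without replicate 1 of the 3-day co-culture it passed at 3 days (log2 fold change -0.96, adjusted p = 0.011).

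Pmepa1 (chromosome 2, 173224458 to 173276533, minus strand) had 287.3, 286.1 and 267.1 normalised counts after 3 days of co-culture, 531.0, 443.3 and 466.9 after 5 days, and 289.6, 244.7 and 282.2 in monoculture. Only the 5-day libraries stood apart. At 3 days the difference from monoculture was 0.04 (95% interval -0.30 to 0.39, adjusted p = 0.88). At 5 days Pmepa1 was 1.76-fold above monoculture (0.82 ± 0.16, adjusted p = 0.0016) and 1.71-fold above the 3-day co-culture (0.77 ± 0.16, adjusted p = 0.0090).

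**Figure D3:**
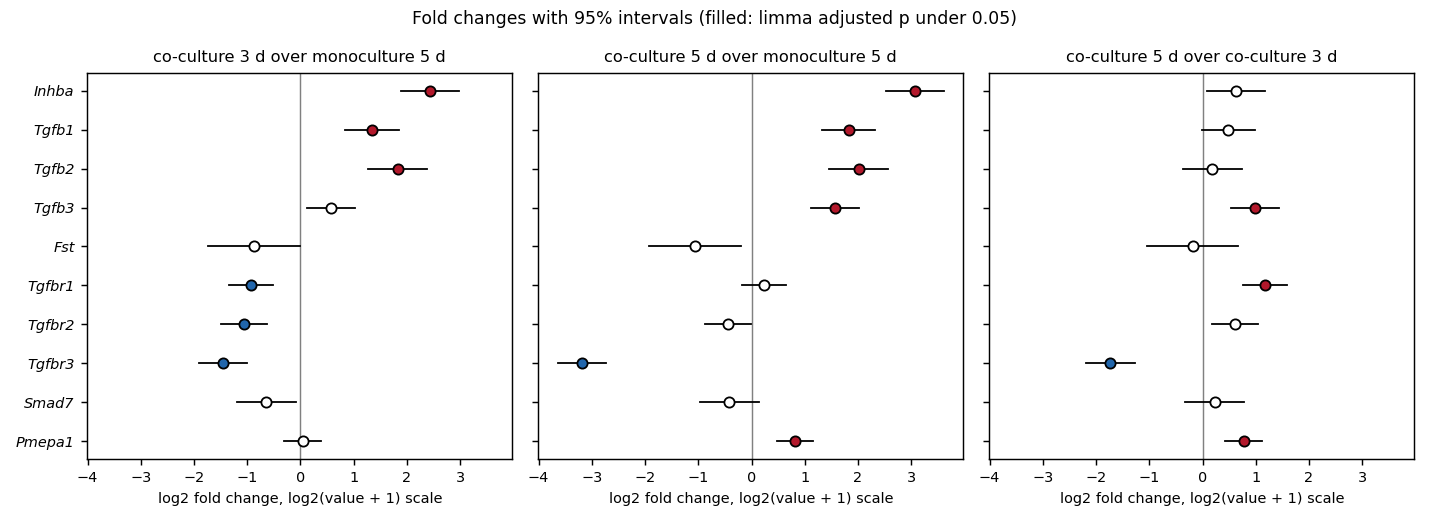
Log2 fold changes of the 10 genes on the log2(value + 1) scale in the 3 comparisons, with 95% intervals. Filled points passed the test (red higher, blue lower). The 3 receptor genes are blue at 3 days, and Tgfbr3 alone is blue at 5 days.

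For each gene and comparison without overlap, an exact permutation of the 3 and 3 libraries (two-sided) gave p = 0.1, the smallest p this design allows, so that this test alone cannot reach 0.05.

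Other genes of the pathway were followed in 4 lists, and these were chosen by function with earlier results of these data known. Integrins, latent TGF-beta binding proteins and proteases that bind or release latent TGF-beta changed in both directions. Of 18 tested, 4 rose and 5 fell at 3 days and 6 rose and 6 fell at 5 days, with medians of -0.16 and -0.08. The share called was 50% at 3 days and 66.7% at 5 days, beside 20.0% and 24.0% of all tested genes. Between 5 and 3 days 2 rose and 1 fell, or 16.7%, beside 6.91%. Itgb1, the beta 1 integrin subunit, averaged 3339.5 ± 356.8 normalised counts after 3 days of co-culture, 3378 ± 89.9 after 5 days and 1469.8 ± 80.6 in monoculture (SD, n = 3), and passed at both times (log2 fold change 1.18 and 1.20, adjusted p = 0.00010 and 6.1e-05). Itgb3, the beta 3 subunit, had 230.8, 151.1 and 169.7 after 3 days, against 39.0, 22.1 and 119.5 in monoculture (1.92, adjusted p = 0.0031). After 5 days it had 372.9, 269.2 and 294.6 (2.69, adjusted p = 0.00014). The gelatinase gene Mmp9 had the largest rise of the list, at 6.25 and 4.81. Emilin1, a matrix glycoprotein that restrains TGF-beta processing, fell at 3 days (-1.05, adjusted p = 0.0014).

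Among other ligands, receptors and antagonists of the branch, 1 rose and 1 fell of 15 tested at 3 days, and 2 rose and 6 fell at 5 days, with medians of -0.21 and -0.57. These were 13.3% and 53.3% of the list, beside 20.0% and 24.0% of all tested genes. Between the co-cultures 1 rose and 3 fell, or 26.7%, beside 6.91%. Gdf15, a stress-induced distant member of the ligand family, turned round between the days. It had 501.5, 385.7 and 418.8 normalised counts after 3 days of co-culture, 31.4, 27.0 and 32.5 after 5 days, and 89.1, 45.2 and 84.2 in monoculture. It rose at 3 days (log2 fold change 2.62, adjusted p = 1.9e-06), fell at 5 days (-1.18, adjusted p = 0.0022) and was lower at 5 than at 3 days of co-culture (-3.80, adjusted p = 5.0e-07). Fstl3, a follistatin-related activin antagonist, had 875.1, 876.4 and 1094.9 after 5 days, against 488.3, 486.4 and 391.4 in monoculture (1.06, adjusted p = 0.00026). The opposite held for Dcn, encoding decorin, which binds TGF-beta: it averaged 1316 ± 319 after 5 days, against 3469 ± 1045 in monoculture (-1.38, adjusted p = 0.00084). The remaining inhibin and activin subunit genes with values, named after their values were seen, were also lower at 5 days. Inhbb had 61.1, 100.6 and 59.9 after 5 days and 256.2, 136.0 and 131.1 in monoculture (-1.20, adjusted p = 0.0035), and Inha had 8.10, 10.2 and 7.50 against 23.5, 22.1 and 18.6 (-1.23, adjusted p = 0.013). Inhba rose in the same libraries.

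Of 22 SMAD transducers and regulators tested, 2 rose and 1 fell at 3 days and at 5 days, or 13.6% each, beside 20.0% and 24.0% of all tested genes, and 0 were called between the co-cultures, with medians of 0.11, 0.16 and 0.11. Between the co-cultures 4 of the 22 had an unadjusted p under 0.05 in limma (Cul1, Ppm1a, Rnf111 and Tgif1), and edgeR called 0 and DESeq2 1, Tgif1. Smad6, an inhibitory SMAD that acts mainly on the bone morphogenetic protein branch, had 19.9, 18.8 and 26.4 normalised counts after 3 days of co-culture, 12.6, 10.2 and 20.0 after 5 days, and 87.3, 97.1 and 63.6 in monoculture. It fell at both times (log2 fold change -1.88 and -2.48, adjusted p = 0.00029 and 1.3e-05). Smurf2, a ubiquitin ligase that marks TGF-beta receptors for degradation, rose at both times, with means of 250.6 ± 40.0 at 3 days, 257.4 ± 21.9 at 5 days and 124.0 ± 21.8 in monoculture (1.01 and 1.06, adjusted p = 0.0014 and 0.00070). Smad2, Smad3 and Smad4, the transducers themselves, also named after their values were seen, were not called. Their log2 fold changes were -0.50, 0.17 and 0.11 at 3 days and -0.24, 0.28 and 0.44 at 5 days (SE 0.35, 0.21 and 0.18). Smad2 was low, averaging 12.3 at 3 days, 14.5 at 5 days and 17.0 in monoculture. Smad4 had 300.1, 289.7 and 234.7 after 5 days, all above the 194.3, 222.6 and 186.4 of monoculture (adjusted p = 0.089). The corepressor gene Skil rose at 3 days (0.87, adjusted p = 0.041) and 5 days (0.97, adjusted p = 0.020). Over the alternatives its adjusted p lay between 0.030 and 0.20 at 3 days. The 3-day call was lost without replicate 2 or 3 of the 3-day co-culture (adjusted p = 0.13 and 0.088) or replicate 2 or 3 of the monoculture (adjusted p = 0.20 and 0.063), and the 5-day call without replicate 2 of the 5-day co-culture (adjusted p = 0.090) or of the monoculture (adjusted p = 0.11).

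Genes known to be induced by TGF-beta in fibroblasts went both ways. Of 41 tested, 12 rose and 9 fell at 3 days and 13 rose and 8 fell at 5 days, with medians of 0.10 and -0.05, and 1 rose and 3 fell between 5 and 3 days. The share called, 51.2% in both comparisons with monoculture, stands beside 20.0% and 24.0% of all tested genes. Between 5 and 3 days the share was 9.76%, beside 6.91% of all tested genes. Ctgf, a matricellular growth factor gene, had 7221.9, 4389.7 and 6395.7 normalised counts after 3 days of co-culture, against 1248.3, 1465.6 and 1149.8 in monoculture (log2 fold change 2.20, adjusted p = 2.0e-06). Its mean after 5 days was 4607, against 1288 in monoculture. Hbegf, an EGF-family ligand gene, rose at both times (1.83 and 2.60). In contrast, Itga11, a collagen-binding integrin gene, had 302.2, 254.8 and 321.4 at 3 days, 169.8, 190.0 and 164.8 at 5 days, and 1467.4, 1319.0 and 895.3 in monoculture (-2.04 and -2.78, adjusted p = 2.5e-06 and 5.3e-08). Lmcd1, a LIM-domain cofactor gene, averaged 42.0 at 3 days, 14.3 at 5 days and 181.0 in monoculture. Its log2 fold change at 5 days was -3.71 (adjusted p = 5.4e-07). The smooth-muscle actin gene Acta2, named after its values were seen, was not called, with log2 fold changes of -0.53 at 3 days (adjusted p = 0.18) and -0.16 at 5 days (adjusted p = 0.72). Without replicate 1 of the 5-day co-culture its 5-day value was 0.041. Tagln, which encodes the actin-binding protein transgelin, was lower at 5 than at 3 days of co-culture (-1.44, adjusted p = 0.0053), and Timp3, a metalloproteinase inhibitor gene, was higher (1.04, adjusted p = 0.0066).

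**Figure D4:**
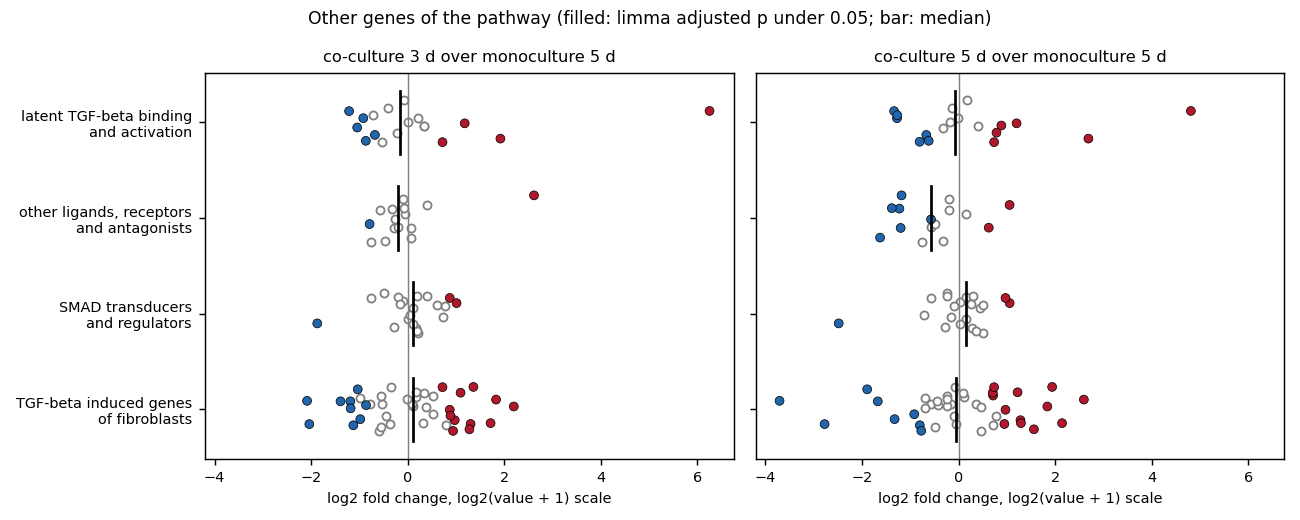
Log2 fold changes on the log2(value + 1) scale of the other pathway genes in 4 lists against monoculture, at 3 days (left) and 5 days (right). Filled points passed the test, bars are list medians, and the medians lie between -0.57 and 0.16 in both panels while single genes spread to both sides.

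Genes with the most similar course over the 9 libraries are given as a description by Pearson's r of log2(value + 1), among tested genes with a mean of at least 20. As the libraries fall into 3 groups, r reflects mainly the group means. Closest to Inhba were Ttc9 (r = 0.995), Dcbld2 (0.994) and Nes, the nestin gene (0.991). Nearest to Tgfbr3 were Sfrp1, which encodes a secreted Wnt inhibitor (0.986), Abi3bp (0.985) and Atf5 (0.981). Sfrp1 averaged 934.3 normalised counts after 3 days of co-culture, 244.1 after 5 days and 5294 in monoculture. Pmepa1, high at 5 days alone, was most like Arpc2 (0.981), Rhob (0.976) and Me2 (0.970).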

How the data were processed

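Normalised counts of 9 sorted fibroblast libraries were used, with 3 libraries in each of 3 groups. The submitters' processing notes name bcl2fastq, STAR 2.4.2a, HTSeq and the build mm10; the annotation, strand setting and scaling are not given in the sources used here. The authors deposited a signal on the scale of counts, divided by a factor per library and rounded to 1 decimal. Between 99.98% and 100.0% of a library's values were whole multiples, within 0.051 units, of what 1 read is worth, which gave whole reads. Counting error is not the only error, as libraries within a group differed by more than counting (chi-square per degree of freedom 6.32 to 15.13). The tools named do not tell whether the reads carried molecular identifiers. One column of the 5-day co-culture, replicate 2, lacks the carcinoma line in its name; it was placed there because each monoculture has a column named as such.

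Testing was limited to the 10639 genes that reached 5 in 3 or more libraries, leaving out 1292, with limma 3.58.1 in R 4.3.3 (lmFit, eBayes with trend, two-sided, Benjamini-Hochberg) on log2(value + 1), all libraries in 1 model. Fold changes are 2 to the power of the log2 fold change, which understates low genes. The members, lists and rules were chosen with earlier results of these data known. The rule for named genes took all 10 members. From each pathway list per comparison it took the 3 called genes with the smallest adjusted p, or the highest gene where none was called. It also took the 2 highest genes of each marker list and the 3 genes most like each called member. The text gives a selection of these. It also names genes outside this rule, among them Epcam, Cldn3, Elf3, Lcn2, Csf1r, Pdgfra, Thy1, Vim, Ttll5 and Tgif1. Alternatives were other pseudocounts, filters and scalings, a replicate block, a fit of the compared groups alone, edgeR 4.0.16 and DESeq2 1.42.0 on recovered reads, leaving out each library and, added after seeing the data, thinning all libraries to 1048471 reads. The code was tested on simulated reads. The values of 1 listed gene are not reported here. Positions are from GENCODE M21 on mm10 and promoters from RefSeq on GRCm38.p6.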

Additional observations from a re-analysis of the deposited data

Results flagged for a closer look

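Between 5 and 3 days of co-culture, 4 of the 10 genes differed by limma's test, beside 6.91% of all tested genes. As all monocultures were sampled at 5 days, this compares the co-cultures at the 2 times and does not show that the effect of co-culture changed. Tgfb3 was higher at 5 days by 0.99 on the log2 scale (adjusted p = 0.010), Tgfbr1 by 1.17 (adjusted p = 0.0019) and Pmepa1 by 0.77 (adjusted p = 0.0090). For Tgfbr3 the difference was -1.73 (adjusted p = 0.00018). Cell type markers also differed between the same libraries. Of 12 fibroblast markers 4 were called, Pdgfra (-1.26), Dcn (-1.30), Thy1 (-0.72) and Vim (1.18), as were Csf1r of the leukocyte list (-1.48) and Lcn2 of the epithelial list (-1.42). The shares called were 33.3% of the fibroblast, 16.7% of the leukocyte and 6.25% of the epithelial markers tested, beside the same 6.91%. Summed endothelial markers did not overlap, at 37.2 to 38.7 normalised counts after 5 days and 50.7 to 64.7 after 3 days, and summed epithelial markers did, at 1120.6 to 1569.1 after 5 days and 1141.7 to 1309.2 after 3 days. The part of these markers in the 4 differences was not tested.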

How the results depend on the processing

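Of 540 values of the 10 genes under the alternatives, 522 kept their direction and their side of the threshold, 11 newly passed it, 2 no longer did and 5 changed sign. The calls of Inhba, Tgfb1, Tgfb2 and Tgfbr3 against monoculture held under all alternatives run. These 5 changes of sign were in values near 0. Pmepa1 at 3 days was -0.030 without replicate 2 of the monoculture (-0.030 to 0.091 over libraries left out) and -0.0021 in thinned libraries. Fst between the co-cultures was 0.06 without replicate 3 at 3 days and 0.12 without replicate 1 at 5 days (-0.63 to 0.12). Smad7 between the co-cultures was -0.012 without replicate 3 at 5 days (-0.012 to 0.54). Outside the 10 genes, Acta2 at 5 days also changed sign, at 0.041 without replicate 1 at 5 days (-0.32 to 0.041). Leaving out 1 library gave 6 to 8 members called at 3 days, 6 to 7 at 5 days and 3 to 5 between the co-cultures, and 323 to 693 genes called between the co-cultures. Under the other alternatives these counts of members were 6 to 7, 6 to 7 and 4. Rescaling moved the median of all genes by less than 0.1 on the log2 scale. Replicate numbers did not pair the libraries: deviations of same-numbered libraries correlated between -0.11 and 0.23, and 2 of 9 libraries matched their own number best. With a replicate block 2219, 2663 and 827 genes were called at 3 days, 5 days and between the co-cultures, and Fst passed at 3 days (adjusted p = 0.025) and 5 days (0.0068). In libraries thinned to the same depth 1708, 2173 and 504 genes were called.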

Other observations

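The balance of the TGF-beta isoform genes also varied within groups. The ratio of Tgfb3 to Tgfb1 lay between 0.504 and 0.989 after 3 days of co-culture, between 0.745 and 1.44 after 5 days, and between 0.875 and 1.43 in monoculture. That of Tgfb2 to Tgfb1 lay between 0.119 and 0.206 after 3 days, between 0.0915 and 0.181 after 5 days, and between 0.0871 and 0.121 in monoculture. All 3 groups overlapped at least 1 other in both ratios, and no test was made.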
